A study of Mus musculus with 9 samples.

Results

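Iron moves through a neutrophil by way of a small set of proteins that take it up, store it and send it out, and 9 of their genes are described here in neutrophils from 3 compartments of tumor-bearing mice. The genes were chosen by name for these roles and not by their values: Fth1, Ftl1, Tfrc, Slc11a1, Slc11a2, Slc40a1, Steap4, Ireb2 and Aco1. They are 9 of the 46517 genes in the table, and all 9 were among the 13014 genes tested. RNA sequencing covered 9 libraries of OT (orthotopic transplanted) mice, 3 each from bone marrow, from blood and from the pancreatic tumor. These were C57BL/6 mice in which cells of a KPC-derived pancreatic tumor line, made to express luciferase, had been injected into the pancreas, and cells were sorted at day 27. Every library came from such mice, so that no library of a mouse without a tumor stands beside them here, and each was made from a pool of mice. The sort took live CD45+ cells that lacked T, B and NK cell markers and carried Ly6G and Ly6C. The labels name the bone marrow cells Ly6G.hi and the blood and tumor cells Ly6G+. A difference between bone marrow and either other compartment therefore goes along with a difference in how the gate is named.

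Ferritin stores iron inside the cell as a shell of heavy chains (Fth1), which oxidise the metal, and light chains (Ftl1), which help to lay it down. The transferrin receptor (Tfrc) brings in iron bound to transferrin. Slc11a2 (DMT1) carries ferrous iron across the membrane of the endosome, and Slc11a1 (NRAMP1) does so at the phagosome, where it withholds metal from ingested microbes. C57BL/6 mice are known to carry a poorly functional allele of Slc11a1. Steap4 is a metalloreductase of the cell surface and endosome, and Slc40a1 (ferroportin) is the known exporter of iron from mammalian cells. The iron regulatory proteins encoded by Aco1 (IRP1) and Ireb2 (IRP2) bind hairpins called iron-responsive elements when iron is scarce. Binding in a 5′ UTR blocks translation, and binding in the 3′ UTR of Tfrc protects the transcript from decay. Much of this control therefore acts on the protein and not on the transcript level that is measured here.

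The hairpins of the members that matched a strict form of the iron-responsive element are shown. The shape searched was an unpaired C, 5 stem bases, the 6 loop bases CAGTGN and 5 bases that pair with the stem. The coding strand of the principal transcript of each gene was read (GENCODE M21, GRCm38). Capitals mark the loop, and the position of each stretch follows it.
Fth1, 5′ UTR: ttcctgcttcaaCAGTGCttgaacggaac (chr19:9982732-9982760, plus strand)
Ftl1, 5′ UTR: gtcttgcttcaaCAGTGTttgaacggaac (chr7:45459779-45459807, minus strand)
Slc40a1, 5′ UTR: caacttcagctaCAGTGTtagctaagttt (chr1:45925465-45925493, minus strand)
Tfrc, 3′ UTR: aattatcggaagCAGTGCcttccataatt (chr16:32631219-32631247, plus strand)
Tfrc, 3′ UTR: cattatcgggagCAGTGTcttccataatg (chr16:32631598-32631626, plus strand)
Tfrc, 3′ UTR: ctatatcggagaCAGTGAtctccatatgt (chr16:32631663-32631691, plus strand)
Tfrc, 3′ UTR: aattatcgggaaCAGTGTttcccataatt (chr16:32631710-32631738, plus strand)

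Fth1, Ftl1 and Slc40a1 each held the shape 1 time, in the 5′ UTR, and Tfrc held it 4 times in the 3′ UTR. Of 21523 principal transcripts, 21 (0.0976%) had it in the 5′ UTR and 108 (0.502%) in the 3′ UTR. A single transcript of the 21523 had 2 or more in its 3′ UTR, which was that of Tfrc. Of the other iron genes described further on, Alas2, the erythroid enzyme that opens heme synthesis, held the shape in its 5′ UTR. No such stretch was found in Slc11a1, Slc11a2, Steap4, Ireb2 or Aco1, which says only that these transcripts did not contain these letters with a full stem. Whether the regulatory proteins bind them in another form was not tested.

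Promoter windows (250 bases before to 50 after the start, RefSeq, GRCm38.p6) were at hand for 7 of the members. The core letters bound by hypoxia-inducible factors, ACGTG or GCGTG on either strand, were searched in them. ACGTG stood in 1 of the 7 members, Tfrc, and in 20.7% of 18458 windows. GCGTG stood in 4 of the 7 members (Tfrc at 4 sites, Fth1, Ftl1 and Slc11a1) and in 37.9% of windows. Every window of a member was read, and the sites of Tfrc come from overlapping windows at different start sites. The shares over all windows took a single window per gene. The E-box CACGTG (7.84% of windows) and the NRF2 core TGACNNNGC (13.3%) were in none of the 7, again on either strand, and the hairpin loop CAGTGN with a C ahead of its 5 stem bases, read on the coding strand, was likewise in none (10.4%). The Tfrc site with ACGTG is shown with its neighbours, the core in capitals:
Tfrc, around a start site: ctcggtaggtgtACGTGcggaaggaagtg (chr16:32608882-32608910, plus strand)

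The libraries held 4580807 to 7949367 reads. The authors' scaling of library sizes averaged 1.149 ± 0.069 (SD, n = 3) of the plain total for tumor, 0.841 ± 0.023 for blood and 0.84 ± 0.043 for bone marrow, so that the deposited values of tumor libraries lie lower than plain totals would put them. The median log2 fold change over all genes was 0.32 for tumor against blood (0.76 with plain totals), 0.09 for tumor against bone marrow (0.54) and -0.11 for blood against bone marrow (-0.11). Of the genes called in tumor against blood, 59.2% were higher in tumor, against 72.4% with plain totals, 43.4% after quantile normalization and 45.7% after median centring. For tumor against bone marrow these shares were 53.8%, 71.8%, 41.9% and 45.1%, and for blood against bone marrow they were 41.7%, 42.8%, 50% and 55.5%.

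Marker lists were read as summed RPM, the reads of the genes per 1000000 reads of the library. Neutrophil genes, all 10 with reads, summed to 45824 to 47129 RPM in bone marrow, 36568 to 37437 RPM in blood and 12978 to 15382 RPM in tumor. Not every gene followed the sum. Csf3r had means of 2120 RPM in bone marrow, 10700 RPM in blood and 3060 RPM in tumor, and Fcgr3 of 1200, 2140 and 1810 RPM. The other genes of the list, among them S100a8 and Mmp9, had their lowest mean in tumor. Tumor epithelium genes (10 of 10 with reads) reached 70.8 to 85.0 RPM in bone marrow, 168 to 296 RPM in blood and 2818 to 5960 RPM in tumor, where Krt8 and Krt18 led them. Within tumor they were highest in tumor replicate 3 (5960 RPM), then in replicate 1 (3714 RPM) and in replicate 2 (2818 RPM). Fibroblast genes (7 of 7) reached 1105 to 1361 RPM in tumor and at most 9.99 RPM elsewhere. Macrophage genes (10 of 10) summed to 352 to 369 RPM in bone marrow, 1089 to 1247 RPM in blood and 705 to 765 RPM in tumor. Csf1r made up most of the sum in blood, and the defining genes C1qa and C1qb stayed at mean levels of 1.67 and 4.29 RPM there. Fewer cells of a type and less RNA per cell cannot be told apart in such bulk libraries.

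**Figure D1:**
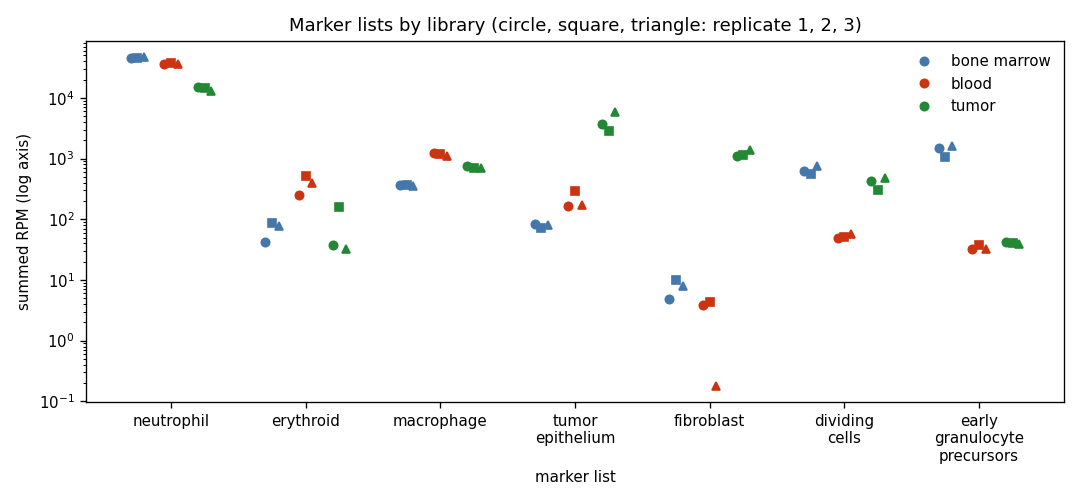
Summed RPM (log axis) of 7 marker lists in each of the 9 libraries, coloured by compartment, with a symbol for each replicate. The epithelial and fibroblast sums stand highest in the 3 tumor libraries, and the neutrophil sum is lowest there, at 12978 to 15382 RPM.

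In tumor against blood, 4 of the 9 iron genes were higher (Fth1, Tfrc, Slc11a2 and Aco1) and 4 were lower (Slc11a1, Slc40a1, Steap4 and Ireb2), while over all genes tested 38.5% were called higher and 26.6% lower. Against bone marrow, tumor neutrophils were higher in 6 (Fth1, Ftl1, Tfrc, Slc11a2, Steap4 and Aco1) and lower in 1 (Slc40a1), beside 29.4% and 25.2% of all genes. Blood against bone marrow was higher in 5 (Fth1, Ftl1, Slc11a1, Slc40a1 and Steap4) and lower in 2 (Tfrc and Aco1), beside 16.9% and 23.6%. The median log2 fold change of the 9 was -0.01, 0.89 and 0.90 in these contrasts. Every call is from limma across all genes tested, at a Benjamini-Hochberg adjusted p under 0.05, and contrasts that share a compartment share its 3 libraries. P-values measure the spread between the pools of a compartment, each of which the study describes as a separate experiment. The study sets tumor neutrophils beside those from marrow and blood of the same mouse, so libraries of different compartments may share mice. The main test treats all 9 libraries as separate.

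**Figure D2:**
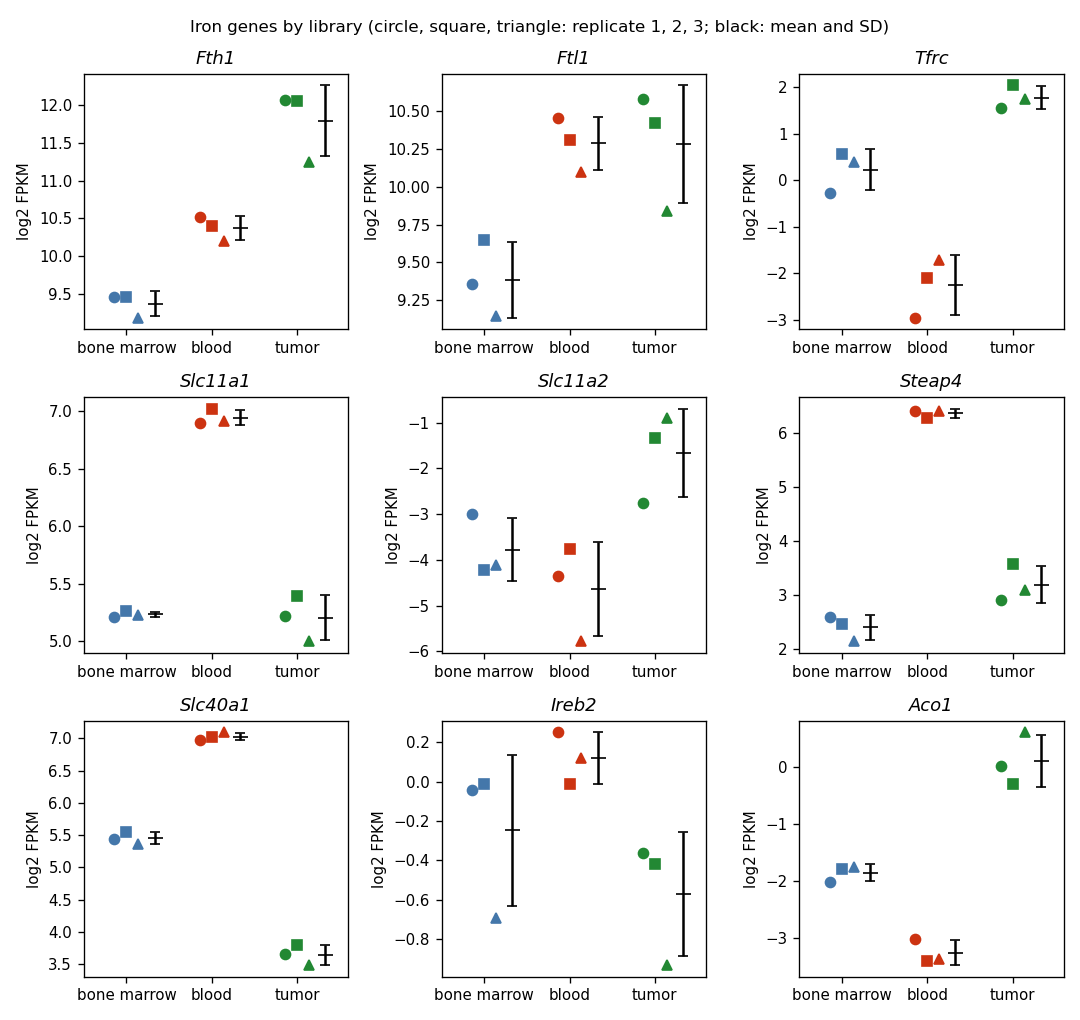
Log2 FPKM of the 9 iron genes in each library by compartment, with the mean and SD (n = 3) in black; each panel has its own axis, none of which starts at 0. Fth1, Tfrc and Aco1 are highest in tumor, and Slc40a1, Slc11a1 and Steap4 are highest in blood.

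**Figure D3:**
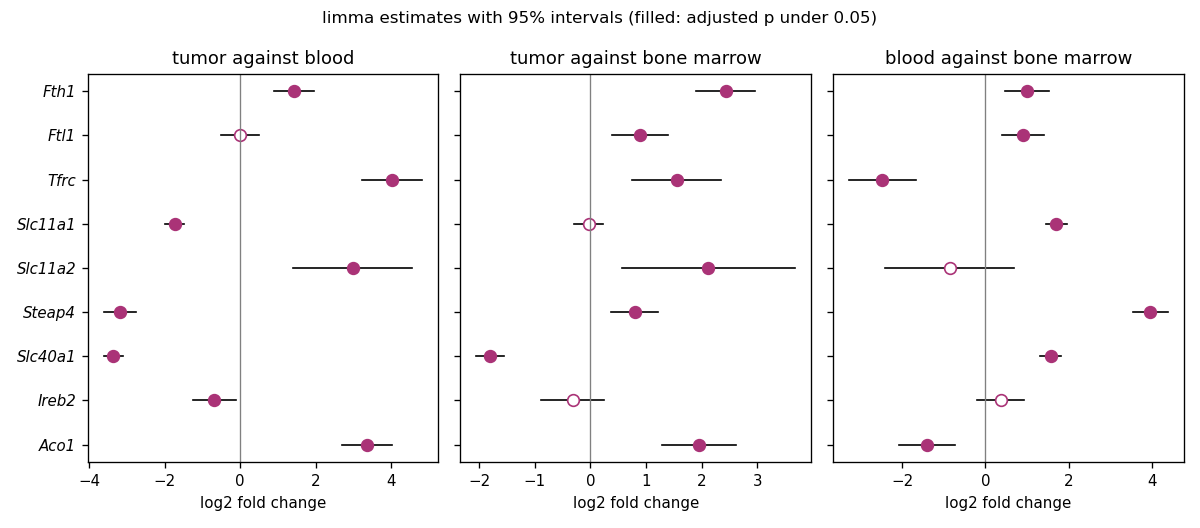
Log2 fold changes from limma with 95% intervals for the 9 iron genes in the 3 contrasts, filled where the adjusted p is under 0.05. Tfrc at 4.03 and Slc40a1 at -3.37 are the extremes of tumor against blood, and Steap4 at 3.97 is the highest in blood against bone marrow.

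Ferritin was the most abundant product of the 9 in every compartment, and its heavy chain rose from bone marrow through blood to tumor. Fth1 (chr19:9980598-9985098, plus strand) stood at 9.46, 9.46 and 9.18 log2 FPKM in bone marrow, at 10.52, 10.40 and 10.20 in blood and at 12.07, 12.06 and 11.25 in tumor. The 3 compartments did not overlap, and tumor replicate 3 was the lowest of its group. Fth1 was 2.68-fold higher in tumor than in blood (log2 fold change 1.42, 95% interval 0.89 to 1.95, adjusted p = 0.000803) and 5.38-fold higher than in bone marrow (2.43, 1.90 to 2.96, adjusted p = 4.78e-05). Blood was 2.01-fold higher than bone marrow (1.01, 0.47 to 1.54, adjusted p = 0.00914).

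The light chain rose only on the way from bone marrow to blood in the values as deposited. Ftl1 (chr7:45457944-45459884, minus strand) stood at 9.36, 9.65 and 9.15 log2 FPKM in bone marrow, 10.45, 10.31 and 10.10 in blood and 10.58, 10.42 and 9.84 in tumor. Blood and tumor overlapped, and both lay above bone marrow. Ftl1 was 1.87-fold higher in blood than in bone marrow (adjusted p = 0.012) and 1.86-fold higher in tumor than in bone marrow (adjusted p = 0.00882). For tumor against blood the log2 fold change was -0.01 with an interval of -0.52 to 0.50 (adjusted p = 0.973). This last value depended on the scaling of libraries: it was 0.44 with plain totals (adjusted p = 0.0615), 0.44 with limma-voom (adjusted p = 0.0185) and -0.41 after quantile normalization (adjusted p = 0.0361), and it was 0.21 without tumor replicate 3.

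The balance of the ferritin chains within a library is not moved by a single factor applied to all values of that library. Quantile normalization is no single factor, and after it tumor against blood was 1.41 for Fth1 and -0.41 for Ftl1. Fth1 gave 1.33, 1.08 and 1.25 reads per Ftl1 read in bone marrow, 1.29, 1.31 and 1.32 in blood and 3.45, 3.84 and 3.29 in tumor. The means were 1.22 ± 0.13, 1.30 ± 0.01 and 3.53 ± 0.29 (SD, n = 3), and the tumor libraries lay apart from all others. On the log2 scale the difference of Fth1 and Ftl1 was 1.43 higher in tumor than in blood and 1.53 higher than in bone marrow. The exact two-sided permutation test gave p = 0.1 for both, the smallest that 3 against 3 libraries allow, and 0.15 adjusted over 3 comparisons. Blood and bone marrow differed by 0.10 (exact permutation p = 0.4), with overlapping libraries. Reads of Fth1 and Ftl1 together took 0.929% to 1.51% of a tumor library, 0.416% to 0.538% of a blood library and 0.219% to 0.258% of a bone marrow library.

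**Figure D4:**
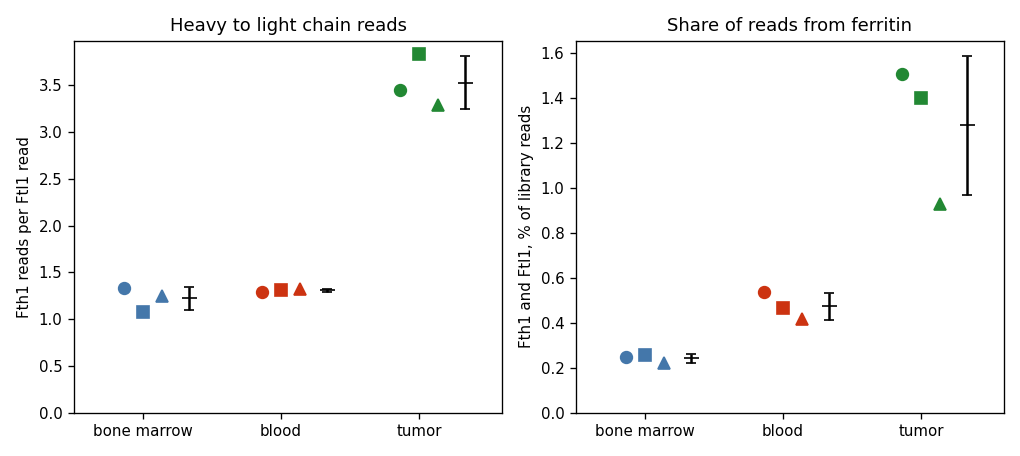
Fth1 reads per Ftl1 read (left) and the percentage of library reads from both genes (right) in each library, both axes from 0, with the mean and SD (n = 3) in black. The ratio is 3.29 to 3.84 in tumor and 1.08 to 1.33 elsewhere.

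The ferritin genes have many processed copies in the genome, and reads that fit several copies could be split or dropped by the counting. The other rows with ferritin names held few reads: 23 to 84 a library for Ftl2, 10 to 28 for Fth-ps2 and 0 for Fthl17. The mitochondrial ferritin Ftmt also had 0 reads in all 9 libraries. With all these rows summed by chain, the log2 difference was 1.43 against blood and 1.53 against bone marrow, and over that, a pseudocount of 1 and each library left out in turn it ranged from 1.37 to 1.48 against blood and from 1.45 to 1.60 against bone marrow.

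Among the genes of iron entry, the transferrin receptor had the widest range. Tfrc (chr16:32608920-32632794, plus strand) had 131, 199 and 208 reads in bone marrow, 12, 31 and 34 in blood and 431, 743 and 631 in tumor. In log2 FPKM this was -0.28, 0.56 and 0.39 in bone marrow, -2.96, -2.10 and -1.71 in blood and 1.54, 2.04 and 1.74 in tumor. None of the compartments overlapped. Tfrc was 16.3-fold higher in tumor than in blood (log2 fold change 4.03, 3.22 to 4.83, adjusted p = 2.35e-05) and 2.93-fold higher than in bone marrow (1.55, 0.74 to 2.35, adjusted p = 0.00577). It was 5.57-fold lower in blood than in bone marrow (adjusted p = 0.000861). Dividing cells are known for high Tfrc, and the genes of dividing cells (8 of 8 with reads, among them Mki67 and Top2a) were lowest in blood, at 48.9 to 56.8 RPM beside 305 to 484 RPM in tumor and 555 to 751 RPM in bone marrow. Tumor epithelium genes were high in tumor too, as given above, and the part of either in the Tfrc difference was not tested.

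Slc11a1, the phagosomal transporter (chr1:74375195-74386062, plus strand), was highest in blood. It stood at 5.21, 5.26 and 5.23 log2 FPKM in bone marrow, 6.90, 7.02 and 6.91 in blood and 5.22, 5.39 and 5.0 in tumor. Blood lay above the other compartments, which overlapped with each other. Slc11a1 was 3.27-fold higher in blood than in bone marrow (1.71, 1.45 to 1.97, adjusted p = 1.93e-05) and 3.34-fold lower in tumor than in blood (-1.74, -2.0 to -1.48, adjusted p = 5.2e-06). For tumor against bone marrow the log2 fold change was -0.03 (-0.29 to 0.23, adjusted p = 0.831), but it was 0.42 with plain totals (adjusted p = 0.00356) and 0.30 after quantile normalization (adjusted p = 0.0148).

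Slc11a2, the endosomal transporter (chr15:100387898-100425072, minus strand), had few reads: 31, 11 and 14 in bone marrow, 7, 15 and 3 in blood and 34, 111 and 158 in tumor. These counts gave -2.99, -4.23 and -4.12 log2 FPKM in bone marrow, -4.36, -3.77 and -5.78 in blood and -2.75, -1.34 and -0.90 in tumor. The tumor libraries did not overlap with the others but spread more widely than for any other member. Slc11a2 was 7.86-fold higher in tumor than in blood (2.98, 1.41 to 4.54, adjusted p = 0.00483), which became 2.40 on the log2 scale without blood replicate 3 and did not pass after quantile normalization (1.49, adjusted p = 0.0826). Against bone marrow it was 4.34-fold higher (2.12, 0.56 to 3.68, adjusted p = 0.0283). That call was lost after quantile normalization (1.20, adjusted p = 0.158), with no filter on low values (adjusted p = 0.0536), without bone marrow replicate 2 (adjusted p = 0.087) or 3 (0.0791), or without tumor replicate 2 (0.0812) or 3 (0.0958). Blood and bone marrow overlapped (-0.86, -2.42 to 0.70, adjusted p = 0.348).

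Steap4, the metalloreductase (chr5:7960457-7982213, plus strand), had the largest difference of the 9 between blood and bone marrow. It stood at 2.59, 2.46 and 2.14 log2 FPKM in bone marrow, 6.42, 6.28 and 6.42 in blood and 2.91, 3.57 and 3.10 in tumor. The 3 compartments did not overlap, and tumor lay near bone marrow. Steap4 was 15.7-fold higher in blood than in bone marrow (3.97, 3.55 to 4.39, adjusted p = 5.22e-06) and 9.05-fold lower in tumor than in blood (-3.18, -3.60 to -2.76, adjusted p = 3.21e-06). In tumor it remained 1.74-fold above bone marrow (0.80, 0.37 to 1.22, adjusted p = 0.00633).

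Ferroportin was the single member that was lower in tumor than in both other compartments. Slc40a1 (chr1:45908068-45926523, minus strand) had 5368, 4883 and 5044 reads in bone marrow, 9124, 13342 and 11814 in blood and 1450, 1948 and 1644 in tumor. In log2 FPKM this was 5.44, 5.55 and 5.36, then 6.97, 7.02 and 7.09, then 3.66, 3.8 and 3.49. The compartments did not overlap, and the libraries of each lay close together. Slc40a1 was 2.98-fold higher in blood than in bone marrow (1.57, 1.32 to 1.82, adjusted p = 2.39e-05). It was 10.4-fold lower in tumor than in blood (-3.37, -3.62 to -3.12, adjusted p = 1.4e-06) and 3.48-fold lower than in bone marrow (-1.80, -2.05 to -1.55, adjusted p = 4e-06). Red cell precursors and macrophages are also known to express ferroportin. The sum of the erythroid genes (9 of 9 in the table with reads) was highest in blood, at 252 to 511 RPM beside 32.4 to 158 RPM in tumor and 43.0 to 85.5 RPM in bone marrow, and the macrophage sum was likewise highest in blood. Globin genes and Alas2 led the erythroid sum, while Klf1, the factor of red cell precursors, had 0 reads in blood and a mean of 3.18 RPM in bone marrow, and Car1 stood at 5.66 RPM in blood beside 17.9 RPM in bone marrow. Their part in the level of Slc40a1 was not tested.

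Of the regulators, Aco1 was highest in tumor and Ireb2 moved little. Aco1 (chr4:40143081-40198338, plus strand) had 91, 90 and 109 reads in bone marrow, 27, 29 and 25 in blood and 344, 338 and 664 in tumor. Its levels were -2.02, -1.79 and -1.75 log2 FPKM in bone marrow, -3.01, -3.40 and -3.36 in blood and 0.01, -0.30 and 0.60 in tumor, with no overlap. Aco1 was 10.2-fold higher in tumor than in blood (3.36, 2.69 to 4.02, adjusted p = 2.29e-05) and 3.87-fold higher than in bone marrow (1.95, 1.29 to 2.62, adjusted p = 0.000603). In blood it was 2.65-fold lower than in bone marrow (adjusted p = 0.00556), a call lost after quantile normalization (-0.86, adjusted p = 0.0636) and with a pseudocount of 1 (-0.21, adjusted p = 0.162). The protein is also the cytosolic aconitase.

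Ireb2 (chr9:54863789-54912530, plus strand) stood at -0.04, -0.01 and -0.69 log2 FPKM in bone marrow, 0.25, -0.01 and 0.12 in blood and -0.36, -0.42 and -0.93 in tumor. Tumor lay below blood and overlapped with bone marrow. It was 1.61-fold lower in tumor than in blood (-0.69, -1.26 to -0.12, adjusted p = 0.0368). This call did not hold with plain totals (-0.24, adjusted p = 0.368), nor without blood replicate 1 (adjusted p = 0.098), 2 (0.0562) or 3 (0.0784), nor without tumor replicate 3 (0.108). Neither tumor against bone marrow (-0.32, adjusted p = 0.306) nor blood against bone marrow (0.37, adjusted p = 0.271) passed the threshold.

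Tumor replicate 3, the library with the most epithelial reads, had the lowest Fth1, Ftl1, Slc40a1, Slc11a1 and Ireb2 of the 3 tumor libraries and the highest Aco1 and Slc11a2. Without it the log2 fold changes of Fth1, Tfrc, Slc11a1, Slc11a2, Slc40a1, Steap4 and Aco1 in tumor against blood kept their direction and their call. What the epithelial reads add to any member, or to the other iron genes described further on, was not tested.

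Levels of different genes were compared as RPM per kilobase of the principal transcript, since the lengths in the deposited FPKM values were mostly whole gene spans. By this length Fth1 was first and Ftl1 second in each compartment, at 1430 ± 109 and 1130 ± 141 in bone marrow, 2880 ± 360 and 2120 ± 288 in blood and 10700 ± 2670 and 2910 ± 634 in tumor (SD, n = 3). In bone marrow and in blood, Slc40a1 came next at 201 ± 2.59 and 600 ± 26.3, ahead of Slc11a1 at 148 ± 6.7 and 486 ± 12.3. In tumor this order was turned, with Slc11a1 at 199 ± 14.9 and Slc40a1 at 79.0 ± 4.01. In tumor the libraries of Slc40a1 (75.1 to 83.1) and Steap4 (59.0 to 88.7) overlapped, so that these neighbours were not set apart. Tfrc stood at 0.905 ± 0.357 in blood and 19.3 ± 2.89 in tumor, where it lay beside Aco1 at 18.6 ± 7.21. Ireb2 stayed between 4.63 and 8.67 in all 9 libraries. Slc11a2 was last by its mean in each compartment, at 0.47 ± 0.276 in blood and 5.12 ± 2.99 in tumor. Its libraries overlapped with those of Tfrc in blood (0.178 to 0.727 beside 0.536 to 1.25) and with those of Ireb2 in tumor (2.06 to 8.03 beside 5.41 to 7.5), so that these neighbours were not set apart either. Some of these orders depended on the length used. Per kilobase of all exons, mean Slc11a1 lay above Slc40a1 throughout (bone marrow 92.7 and 75.2, blood 304 and 225, tumor 124 and 29.6). Steap4 in blood then stood at 481, above both. By exons Ftl1 lay above Fth1 in bone marrow (817 and 382) and blood (1530 and 772). In tumor Fth1 stayed above Ftl1 (2870 and 2100).

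Other genes of iron handling were read from 6 lists, with 72 genes of which 69 were in the table and 56 were tested. In tumor against blood, 28 were higher and 9 lower (50% and 16.1%, beside 38.5% and 26.6% of all genes). Against bone marrow, tumor was higher in 16 and lower in 12 (28.6% and 21.4%, beside 29.4% and 25.2%). Blood was higher than bone marrow in 6 and lower in 20 (10.7% and 35.7%, beside 16.9% and 23.6%). Of the 56 genes, 10 reached the read filter only with the tumor libraries, a choice that favours higher values there, and 8 of them are among the 28 and 7 among the 16. Without the bone marrow libraries 2 of the 56, Cd163 and Cpox, would not have reached it. Cd163 is among the 12 and the 20 that were lower than in bone marrow. Quantile normalization turned the tumor against blood counts to 21 higher and 16 lower, and plain totals gave 34 and 6.

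**Figure D5:**
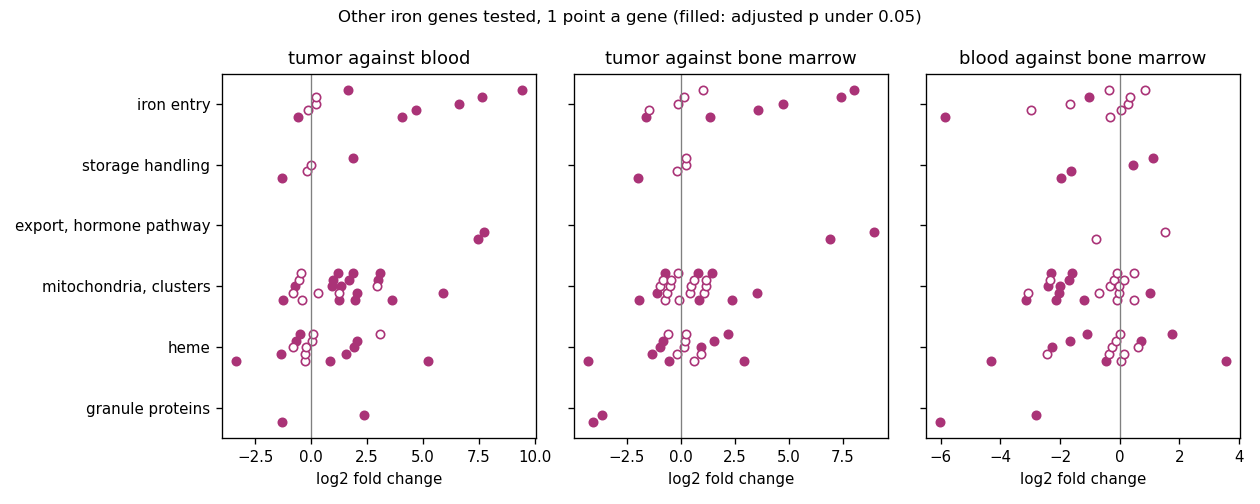
Log2 fold changes from limma of the 56 other iron genes tested, 1 point a gene, by list and contrast, filled where the adjusted p is under 0.05. The points far to the right in the tumor contrasts are genes with almost no reads outside tumor, such as Cp and Steap2.

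In the list of other iron entry genes, 5 of the 10 tested (Steap1, Steap2, Slc39a14, Tfr2 and Slc39a8) reached the read filter only with the tumor libraries, so that the filter favoured higher values in tumor and they are given as reads. Steap1, a surface reductase, had 44, 32 and 66 reads in tumor and at most 1 elsewhere. Its relative Steap2 had 80, 97 and 197 and at most 2 elsewhere, and Slc39a14 (ZIP14), an importer of iron not bound to transferrin, had 82, 48 and 117 and at most 4. The second transferrin receptor, Tfr2, had 143, 119 and 337 reads in tumor, 21, 4 and 26 in bone marrow and 0 in all 3 blood libraries. For Steap1, Steap2, Slc39a14 and Tfr2 the highest count was in tumor replicate 3, the library with the highest epithelial sum. The part of other cells in them was not tested. Slc39a8 (ZIP8) had 13, 18 and 56 reads in tumor, again with the highest count in tumor replicate 3. It had 8, 7 and 17 reads in bone marrow, which overlapped with tumor, and 4, 1 and 0 in blood. Exoc6, which takes part in the transferrin cycle and was named after its values were seen, was the gene of this list lower in tumor than in blood (-0.59, lost with plain totals) and than in bone marrow (-1.63). Steap3, the endosomal reductase of the transferrin cycle, had 2 to 38 reads a library and passed in none of the contrasts, but after quantile normalization it was lower in tumor than in blood (-3.33, adjusted p = 0.00957) and than in bone marrow (-4.33, adjusted p = 0.00295).

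Of the storage genes, Ncoa4, the receptor that delivers ferritin to the lysosome, was lower in blood and in tumor than in bone marrow (-1.97 in both, adjusted p = 1.42e-05 and 4.09e-06) and did not pass between tumor and blood (0.00, adjusted p = 0.994). That last value turned with the scaling, to 0.45 with plain totals (adjusted p = 0.00953) and -0.47 after median centring (adjusted p = 0.00899). Its reads were 2711, 2535 and 2792 in bone marrow, 425, 699 and 444 in blood and 677, 807 and 872 in tumor. Fbxl5, which targets IRP2 for degradation when iron is plentiful, was highest in blood (1.12 against bone marrow, and -1.29 in tumor against blood). The iron chaperone Pcbp1 was lower in blood than in bone marrow (-1.63, adjusted p = 0.0103) and higher in tumor than in blood (1.86, adjusted p = 0.00294), with 1193 reads in tumor replicate 3 beside 299 and 472. Its relative Pcbp2 was higher in blood than in bone marrow (0.46, adjusted p = 0.0345), and its tumor contrasts passed or not with the scaling. In all, 1 of the 4 tested storage genes was higher and 1 lower in tumor against blood, beside 38.5% and 26.6% of all genes. These counts were 0 and 1 in tumor against bone marrow, beside 29.4% and 25.2%, and 2 and 2 in blood against bone marrow, beside 16.9% and 23.6%.

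Of the 9 genes of export and its hormone pathway, 2 were tested, and both reached the read filter only with the tumor libraries, so that their reads are given as a description. Cp (ceruloplasmin), a ferroxidase that works beside ferroportin, had 1875, 1714 and 3878 reads in tumor and 1 to 19 elsewhere, and Neo1 had 65, 105 and 138 and at most 1 elsewhere. The hepcidin genes and the others of this list did not pass the read filter. Cp too was highest in tumor replicate 3.

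Genes of mitochondrial iron and iron-sulfur clusters were all 22 tested. Against blood, tumor was higher in 13 and lower in 2, beside 38.5% and 26.6% of all genes tested. Against bone marrow, tumor was higher in 5 and lower in 3, beside 29.4% and 25.2%. Blood against bone marrow was higher in 1 and lower in 9, beside 16.9% and 23.6%. Of the 22, 2 reached the read filter only with the tumor libraries. After quantile normalization the counts were 7 higher and 4 lower against blood, with 2 calls turned in sign, and 4 higher and 6 lower against bone marrow. Hspa9, the chaperone of cluster transfer, was higher in tumor than in blood (3.60, adjusted p = 1.91e-06) and than in bone marrow (2.40, adjusted p = 1.06e-05). The ferredoxin Fdx1, which entered the test through the tumor libraries, had 39, 11 and 50 reads there and at most 6 elsewhere. Nfu1, a late carrier of clusters, was highest in bone marrow, with blood at -3.14 and tumor at -1.92 against it. Iscu, the scaffold on which clusters are built, was lower in tumor than in blood (-1.26) and bone marrow (-1.12), the second lost with plain totals (-0.67, adjusted p = 0.0654). The importers Slc25a37 and Slc25a28 passed in none of the contrasts, but both were lower in tumor than in blood after median centring (-0.93, adjusted p = 0.0281, and -1.27, adjusted p = 0.0383).

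Of the heme genes tested, 5 of 16 were higher and 4 lower in tumor against blood, beside 38.5% and 26.6% of all genes. These counts were 4 and 5 in tumor against bone marrow, beside 29.4% and 25.2%, and 3 and 5 in blood against bone marrow, beside 16.9% and 23.6%. Hmox1, the inducible heme oxygenase that frees iron from heme, had 952, 846 and 871 reads in bone marrow, 922, 1359 and 1050 in blood and 2410, 4367 and 2512 in tumor. It rose from bone marrow to blood (0.73, adjusted p = 0.0179) and was higher again in tumor (0.83 against blood, adjusted p = 0.00573, lost after median centring, and 1.56 against bone marrow, adjusted p = 0.000229). The constitutive Hmox2 and the reductase Blvrb passed in none, but tumor against blood passed for Hmox2 after median centring (-0.76, adjusted p = 0.0166) and for Blvrb after quantile normalization (-1.41, adjusted p = 0.024). Alas1, which opens heme synthesis outside red cells, was lower in tumor than in bone marrow (-0.97) and blood (-0.51, lost with plain totals and after quantile normalization). The next enzyme, Alad, was higher in tumor than in blood (5.21) and bone marrow (2.93), with 227, 203 and 437 reads in tumor and 2 to 44 elsewhere. The red cell enzyme Alas2 followed the globin genes, with 238, 788 and 549 reads in blood and 14, 308 and 80 in tumor. The lysosomal heme transporter Slc48a1 passed in tumor against bone marrow (-0.54, adjusted p = 0.0253), which was lost with plain totals and after quantile normalization. The heme scavenger receptor Cd163 reached the read filter only with the bone marrow libraries, so that the filter favoured higher values there. It is given as reads, with 23, 27 and 50 in bone marrow, 0, 5 and 2 in blood and 2, 0 and 10 in tumor. Cd163 is counted among the genes lower than bone marrow in tumor and in blood, the second lost after quantile normalization and median centring.

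Of the iron-binding proteins of the granules, Ltf (lactoferrin) and Lcn2 (lipocalin 2, which captures bacterial siderophores) were tested, and both were highest in bone marrow. Ltf had 243442, 233192 and 241307 reads in bone marrow, 2846, 2720 and 2624 in blood and 23561, 16196 and 26540 in tumor. It fell from bone marrow to blood (-6.03, adjusted p = 2.41e-06) and was higher in tumor than in blood (2.37, adjusted p = 3.74e-05). Lcn2 fell from bone marrow to blood (-2.80) and was lower again in tumor than in blood (-1.29, adjusted p = 0.00241). The genes of early granulocyte precursors (6 of 6 in the table with reads) reached 1066 to 1638 RPM in bone marrow beside 39.1 to 42.0 RPM in tumor and 32.1 to 37.6 RPM in blood, and their part in these levels was not tested.

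Genes with the pattern most like each member were taken by Pearson's r of log2 FPKM over the 9 libraries, as a description, since the points of a compartment share their source. For Fth1 these were Bcl2a1a (r = 0.992), Ier3 (0.991) and Slc7a11 (0.99), the cystine transporter. For Slc40a1 they were Sorl1 (0.999), Dennd3 (0.997) and Pigb (0.997), and for Slc11a1 Pla2g7 (0.998), Gpcpd1 (0.995) and Irgm2 (0.994). Steap4 was most like Sirpb1a (0.997) and Rufy4 (0.993). Tfrc was most like Tuba1c (0.989), Cops2 (0.987) and Vprbp (0.987), and Aco1 most like Alg5 (0.993), Fars2 (0.991) and Suclg2 (0.99). The values were lower for Ftl1 (Hyal3 at 0.973, Rnf213 at 0.969, Nxf1 at 0.964), Slc11a2 (Map4k5 at 0.974, Ankrd10 at 0.961, Insig1 at 0.958) and Ireb2 (Gm26581 at 0.982, Tnrc6a at 0.977, Apbb1ip at 0.964). Bcl2a1a belongs to a family of near-identical copies, so its reads may be shared among them.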

How the data were processed

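Neutrophil RNA from 9 libraries was sequenced after SMARTSeq v2 amplification. The authors mapped reads to GRCm38/mm10 with STAR 2.5.2b, counted them on GENCODE M7 genes with featureCounts 1.5.0, and deposited log2 FPKM values for 46517 genes (edgeR 3.8.6 is among the tools in the submitters' processing notes). The values step in whole reads plus a constant of 0.25, with scaled library sizes and a length that was mostly the gene span. Reads were recovered for all 46517 genes (tolerance 1e-06), and recovery was tested on simulated data. Read counts cover counting error only, since PCR duplicates remain.

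Genes with at least 10 recovered reads in at least 3 libraries (13014) were tested on the deposited log2 FPKM with limma 3.58.1 (R 4.3.3, lmFit, eBayes with trend, all 9 libraries), Benjamini-Hochberg adjusted over all genes at 0.05. A filter on FPKM over 0 would drop long, low genes such as Slc11a2 and Aco1. Alternatives covered filters, limma-voom on reads, scaling, pseudocounts, variance models, the replicate block, the compartments in the fit, a fold change minimum and each library left out. The members, lists and tests were chosen with earlier results of these data known. The genes named are the 9 members, all ferritin-named rows, a fixed set of other iron genes and up to 3 more per list with the largest called changes, and 3 nearest patterns per member. Positions and transcripts are from GENCODE M21 and promoter windows from RefSeq. Tf, Flvcr1 and Flvcr2 were not analysed here, and a few genes that this rule names are not reported here.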

Additional observations from a re-analysis of the deposited data

How the results depend on the processing

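The calls of Fth1, Tfrc, Slc40a1 and Steap4 in every contrast kept their direction and side of the threshold under all alternatives run, except that Steap4 in tumor against bone marrow lies under a minimum log2 fold change of 1. The difference between ferritin chains kept its direction in tumor against both compartments, in a test that cannot pass 0.1. With log2 FPKM over 0 in at least 3 libraries as the filter, 2194 genes were higher in tumor than in blood, 1745 higher in tumor than in bone marrow and 1841 lower in blood than in bone marrow. That filter left 2 iron genes higher in tumor against blood and 1 lower in blood against bone marrow, since it dropped Slc11a2, Ireb2 and Aco1. Quantile normalization and a pseudocount of 1 also left 1 iron gene lower in blood against bone marrow, without Aco1. The cause was not tested. With limma-voom 5793 genes were higher in tumor than in bone marrow, and with plain totals 2083 were lower. Ftl1 in tumor against blood was 0.44 with limma-voom and with plain totals. Slc11a1 in tumor against bone marrow was 0.42 with limma-voom and with plain totals and 0.30 after quantile normalization. Ireb2 in tumor against bone marrow was 0.13 with limma-voom and with plain totals. Leaving out each library in turn, Ftl1 ranged from -0.16 to 0.21 and Slc11a1 from -0.12 to 0.07.

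The labels do not say whether a shared replicate number means a shared pool of mice. Deviations of same-numbered libraries correlated from -0.143 to 0.079 in 9 pairs, and not every library correlated best with its own number. With 3 libraries per compartment such correlations cannot settle whether the libraries are paired. With the replicate block 4981 genes were higher and 3434 lower in tumor against blood, 3739 and 3206 in tumor against bone marrow, and 2139 and 2971 in blood against bone marrow. The block ended the call of Slc11a2 in tumor against bone marrow (adjusted p = 0.0538) and changed no other call of the members. Slc11a2, with 3 to 158 reads a library, is where depth limits the values most.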
